A study of Ovis aries with 18 samples.

Results

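The hypoblast, or primitive endoderm, is the epithelium that lines the blastocyst cavity beneath the epiblast. Its genes were followed through 9 that are known for this layer and were taken by name: the transcription factors GATA6, GATA4, SOX17, FOXA2 and HNF4A, the receptor PDGFRA, the basement membrane genes COL4A1 and LAMA1, and the apolipoprotein gene APOA1. Of the 9, 7 had a row among the 20092 genes of the count table, while HNF4A and APOA1 were not analysed here. Of the 7, GATA6, GATA4, PDGFRA, COL4A1 and LAMA1 had at least 15 counts in more than 3 pools and were among the 16488 genes tested. SOX17 and FOXA2 did not reach this minimum and are described by their counts.

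The study asked whether methionine in the diet of young rams changes the transcripts of the embryos they sire. Control rams (sires Ram410, Ram423 and Ram444) ate a basal diet, and methionine rams (sires Ram424, Ram498 and Ram511) ate the same diet with 1.5 g of rumen-protected methionine on top (0.22%), an amino acid that donates methyl groups, in both cases for 77 days that began before puberty. Polypay rams were used, and blastocysts were flushed from superovulated ewes 8 days after the rams joined them. RNA was sequenced from 12 pools of 5 whole blastocysts, 6 from control and 6 from methionine sires.

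Several features of the design limit what a pool can show. Sires Ram410, Ram423 and Ram444 gave 2 pools each and sire Ram424 gave 4, while sires Ram498 and Ram511 gave 1 each, so pools were not independent of their sire and 4 of the 6 methionine pools came from 1 ram. The study formed the pools by sire and dam, but the sample labels name no dam. Pools of a ram may share a ewe, and differences between sires cannot be told apart from differences between their ewes. Each library was made from whole blastocysts, its RNA had gone through whole-transcriptome amplification, and no cell type was isolated. The study gives the stages as early to hatched blastocyst, balanced between the groups. In such bulk pools, fewer hypoblast cells and less RNA per hypoblast cell cannot be told apart. The counts of a control pool summed to between 1173289 and 1554651 (median 1399545), and those of a methionine pool to between 1017847 and 2398589. These totals are a small part of the reads that the study describes as sequenced, and why so few were counted was not tested. Nor could it be told whether the deposited counts are those of the strand that the genes are read from, and if they are not, no CPM given here is the level of the transcript named. Levels are given as CPM, the counts of a gene scaled to a common library size, after TMM normalization (raw CPM where the scaling is by the total counts of the pool alone), means as mean ± SD between pools, and fold changes as methionine against control on the log2 scale.

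In the mammalian blastocyst the inner cell mass separates into epiblast, which forms the fetus, and hypoblast, which spreads under the epiblast and the trophectoderm and forms the endoderm of the yolk sac. FGF4 from epiblast-fated cells signals through FGF receptors and the MAPK cascade in neighbouring cells, where GATA6 is retained and NANOG is lost. GATA6 is followed by SOX17 and GATA4, PDGFRA supports the survival of the committed cells, and the layer then lays down a basement membrane of type IV collagen and laminin and secretes apolipoproteins and other carrier proteins.

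Control pool Embryo444_2 and methionine pool Embryo511_1 stood apart from the other libraries. Their median Spearman correlations with the remaining pools across genes were 0.722 and 0.733, against 0.88 to 0.906 for the other 10 pools. The 100 most counted genes took 4.51% of the counts in pool Embryo444_2 and 8.54% in pool Embryo511_1, against 9.0% to 14.8% in the others. Of the 16488 tested genes, 1068 (6.48%) in pool Embryo444_2 and 982 (5.96%) in pool Embryo511_1 lay at least 4-fold under their median over 12 pools, compared with 0.103% to 0.588% in any other pool. In the other direction, 1978 (12%) in pool Embryo444_2 and 2682 (16.3%) in pool Embryo511_1 lay at least 2-fold over it, compared with 1.42% to 4.87%. Fits of the 5 tested hypoblast genes are given with and without these pools, and for some list genes the log2 fold change without them stands beside the first. Leaving out pool Embryo511_1 removes sire Ram511 altogether. Of the methionine pools that remain, 4 are from sire Ram424 and 1 is from sire Ram498, so such fits rest largely on sire Ram424. Pools Embryo424_1 and Embryo424_2 were the most alike pair, with a correlation of 0.968. Their mean chi-square per gene was 3.40 and its median 1.14, against means of 8.70 to 27.8 and medians of 2.43 to 7.83 in other pairs of a sire, where counting noise alone gives a mean of about 1. Whether they came from separate RNA cannot be told from this. They were kept as separate pools, as labelled. With both summed into 1 sample, a choice made after seeing the data, 0 hypoblast genes passed the FDR and the log2 fold change of GATA6 was 0.36 (FDR 0.948 in edgeR).

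No hypoblast gene differed between the diets past the threshold. Of the 5 tested genes, 0 had an FDR under 0.05 with the quasi-likelihood test of edgeR, against 0 of all 16488 genes (0.00%). At an unadjusted p under 0.05 the count was 0 of 5, against 1306 of all genes (7.92%), of which 586 (3.55%) were higher and 720 (4.37%) lower in methionine pools. The likelihood-ratio test and DESeq2 passed 5 and 16 of all genes, with 0 hypoblast genes among them. PDGFRA was the gene whose pools did not overlap between the diets after TMM normalization, 1 of 5, whereas 58 of all tested genes (0.352%) showed no overlap.

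**Figure D1:**
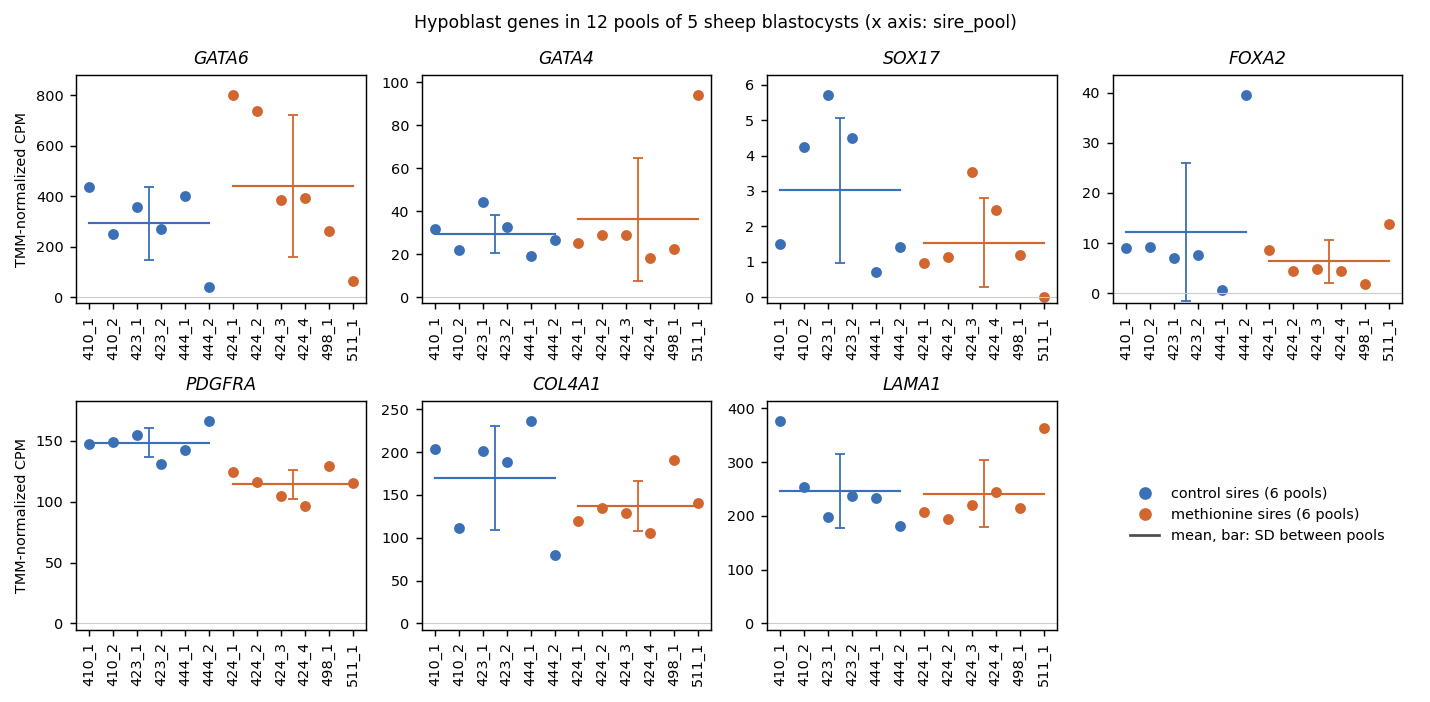
TMM-normalized CPM of the 7 hypoblast genes in each of 12 pools of 5 blastocysts, control sires in blue and methionine sires in orange, with the mean of each diet as a line and the SD between pools as a bar; the x axis gives the numbers of sire and pool. GATA6 is lowest in pools Embryo444_2 (38.9 CPM) and Embryo511_1 (66.4 CPM) and highest in pools Embryo424_1 and Embryo424_2, GATA4 is highest in pool Embryo511_1, and the PDGFRA values of control pools (131 to 166 CPM) lie above those of methionine pools (96.3 to 129 CPM), a separation not seen with scaling by total counts.

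GATA6 is the zinc finger factor with which hypoblast fate begins, and in the blastocyst its transcript is also found in trophectoderm. In control pools GATA6 measured 437 and 249 CPM in the pools of sire Ram410, 359 and 270 CPM in those of sire Ram423, and 402 and 38.9 CPM in those of sire Ram444. In methionine pools it measured 801, 736, 387 and 393 CPM in the 4 pools of sire Ram424, 264 CPM in the pool of sire Ram498 and 66.4 CPM in that of sire Ram511. The highest values were those of pools Embryo424_1 and Embryo424_2 and the lowest those of the pools that stood apart, 1 in each diet, so the diets overlapped widely. Pool Embryo444_2 held 55 GATA6 counts, or 46.9 raw CPM with an exact 95% interval of 35.3 to 61.0, and pool Embryo511_1 held 67 counts, or 65.8 raw CPM (51.0 to 83.6). The sister pool of Embryo444_2 from the same sire, Embryo444_1, held 404 raw CPM (372 to 439), so the difference within sire Ram444 lay far outside counting error.

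The control mean of GATA6 was 293 ± 144 CPM and the methionine mean 441 ± 281 CPM (n = 6 pools each). The log2 fold change was 0.59 (SE 0.56, 95% interval -0.59 to 1.77, FDR 0.80 in edgeR), which lay within the scatter of the pools. By exact permutation, two-sided, the tests gave p = 0.487 over pools and p = 0.8 over rams, for which 0.1 is the smallest p that 3 rams against 3 allow. The difference in mean log2(CPM + 1) behind them was 0.54 over pools and, with the opposite sign, -0.14 over rams, and with the pools of each ram summed the log2 fold change was 0.11 (FDR 1 in edgeR). Without pools Embryo444_2 and Embryo511_1 the means were 343 ± 81.8 and 516 ± 237 CPM (n = 5 each), with a log2 fold change of 0.57 and an FDR of 0.458 in edgeR. The direction rested on sire Ram424. Without its pools the log2 fold change was -0.81 (SE 0.78, FDR 0.809 in edgeR), and the means of the rams were 343, 314 and 220 CPM for sires Ram410, Ram423 and Ram444 and 579, 264 and 66.4 CPM for sires Ram424, Ram498 and Ram511.

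Against its own median over 12 pools, GATA6 lay 9.36-fold lower in pool Embryo444_2 and 5.54-fold lower in pool Embryo511_1. These deviations stood at the 2.09th and 3.34th percentiles of the deviations of all tested genes in those pools. In pools Embryo424_1 and Embryo424_2 GATA6 lay 2.15-fold and 1.97-fold higher, at the 97.3rd and 95.8th percentiles, and in the remaining 8 pools it stayed within 1.50-fold of its median.

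Most trophectoderm markers, and SALL4 and POU5F1 among the epiblast markers, were low in the same pools as GATA6. Of 12 trophectoderm markers, 8 had a row and all 8 were tested, and 7 of them lay at least 4-fold under their median in pool Embryo444_2 and 4 of them in pool Embryo511_1, with 0 in each of the other pools. Their summed level in control pools was 7669 and 12040 CPM for sire Ram410, 11660 and 9799 CPM for sire Ram423, and 5419 and 280 CPM for sire Ram444. In methionine pools the sum was 7909, 7903, 14250 and 14800 CPM for sire Ram424, 7542 CPM for sire Ram498 and 272 CPM for sire Ram511. KRT8, a keratin of the trophectoderm, was the most abundant of them in all pools but Embryo511_1 and measured 116 CPM in pool Embryo444_2 and 42.6 CPM in pool Embryo511_1, against 3890 to 11900 CPM elsewhere. KRT18, its keratin partner, measured 14.2 and 34.7 CPM in those pools and 696 to 2220 CPM elsewhere. ELF5, a trophectoderm transcription factor, did not share this pattern, with 29.0 CPM in pool Embryo444_2, 66.4 CPM in pool Embryo511_1 and 17.1 to 128 CPM elsewhere, and 0 of the 8 markers had a count of 0 in any pool. The part of these markers in the GATA6 values was not tested. At the other end, in pools Embryo424_1 and Embryo424_2, where GATA6 was highest, the markers were mixed. The median log2 deviation of the markers was 0.53, 0.30, 0.41 and 0.57 in pools Embryo424_1, Embryo424_2, Embryo424_3 and Embryo424_4, while GATA6 lay near its median in the latter pair. In pools Embryo424_1 and Embryo424_2 TFAP2C and DAB2 were at their highest, with log2 deviations of 0.90 and 0.69 for TFAP2C and 1.34 and 1.44 for DAB2. GATA2 (0.815 and 0.831) and TEAD4 (0.623 and 0.894) also lay over their medians there. ELF5 (-0.40 and -0.33) and KRT8 (-0.18 and -0.09) lay under theirs, and CDX2 (0.43 and -0.43) and KRT18 (0.08 and -0.20) lay on either side.

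Of 12 epiblast markers, 8 had a row and 6 were tested. Their sum in control pools was 911, 891, 1234, 893, 820 and 192 CPM in pools Embryo410_1, Embryo410_2, Embryo423_1, Embryo423_2, Embryo444_1 and Embryo444_2, and in methionine pools 1166, 1128, 1263 and 937 CPM for sire Ram424, 500 CPM for sire Ram498 and 343 CPM for sire Ram511. SALL4, a zinc finger factor of pluripotent cells, was the most abundant in each pool, and POU5F1, the core pluripotency factor, measured 14.2 CPM in pool Embryo444_2 and 39.7 CPM in pool Embryo511_1 against 132 to 521 CPM in the others. Of the 6 tested markers, 2 in pool Embryo444_2 and 1 in pool Embryo511_1 lay at least 4-fold under their median, and the median deviations of the list were -0.16 and -0.24. PRDM14, a regulator of pluripotency, ran the other way, with its highest values in pools Embryo511_1 (83.3 CPM) and Embryo444_2 (43.9 CPM) and 14.5 to 37.9 CPM elsewhere. NANOG, which opposes GATA6 when epiblast and hypoblast part, measured 7.86 to 16.3 CPM in control and 5.10 to 14.1 CPM in methionine pools. Across 12 pools GATA6 and NANOG had r = -0.02 on the log2(CPM + 1) scale and a Spearman rho of 0.04. Across the 10 pools without Embryo444_2 and Embryo511_1 r was -0.57. These include pools Embryo424_1 and Embryo424_2, the most alike pair, with the highest GATA6 and with NANOG at 8.60 and 5.10 CPM. FGF4, the epiblast ligand that favours hypoblast, was at 0 counts in pools Embryo410_2, Embryo423_1, Embryo423_2 and Embryo424_2, and UTF1, another gene of this list, in pools Embryo410_1, Embryo410_2, Embryo423_1, Embryo498_1 and Embryo511_1.

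GATA4, a zinc finger factor that follows GATA6 in the committed hypoblast, measured 31.6, 22.0, 44.3, 32.7, 19.2 and 26.9 CPM in control pools Embryo410_1, Embryo410_2, Embryo423_1, Embryo423_2, Embryo444_1 and Embryo444_2. In methionine pools it measured 25.3, 28.9, 28.9 and 18.2 CPM for sire Ram424, 22.3 CPM for sire Ram498 and 94.2 CPM for sire Ram511. Pool Embryo511_1 lay above all other pools, with 95 counts, or 93.3 raw CPM (exact 95% interval 75.5 to 114), and the other 5 methionine pools lay inside or just under the control range. In pool Embryo511_1 GATA4 lay 3.3-fold over its median, at the 94.1st percentile of the deviations of all tested genes there. GATA4 and GATA6 thus parted in pool Embryo511_1, where GATA4 was at its highest and GATA6 near its lowest, and in pool Embryo444_2, where GATA4 was 1.03-fold under its median. The means were 29.4 ± 8.99 CPM in control and 36.3 ± 28.7 CPM in methionine pools (n = 6 each), a log2 fold change of 0.28 (SE 0.39, 95% interval -0.54 to 1.10, FDR 0.866 in edgeR). Exact permutation tests gave p = 0.835 over pools (difference 0.11 in mean log2(CPM + 1)) and p = 0.9 over rams (0.39).

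A single library set the sign of the GATA4 difference. With pools summed per ram, where that library stands for a whole ram, the log2 fold change was 0.69 (FDR 1 in edgeR), and without the pools of sire Ram424 it was 0.97 (SE 0.50, FDR 0.629 in edgeR). Without pool Embryo511_1 the log2 fold change was -0.25 (FDR 0.715 in edgeR), and without pools Embryo444_2 and Embryo511_1 it was -0.29 (SE 0.28, FDR 0.709 in edgeR), from means of 29.9 ± 9.95 CPM in control and 24.7 ± 4.58 CPM in methionine pools (n = 5 each). Of 12 oocyte and cumulus markers, 7 had a row and were tested, and their sum was 860 CPM in pool Embryo511_1, while control pools had 190 to 290 CPM and the remaining methionine pools 203 to 264 CPM. ZP3, a gene of the zona pellucida made by the oocyte, was the most abundant of them in pool Embryo511_1 at 410 CPM, against 9.21 to 27.6 CPM in the other 11 pools, and no marker of this list had a count of 0. HAS2, a hyaluronan synthase of cumulus cells, was highest in pool Embryo444_2 at 106 CPM and measured 35.0 to 66.8 CPM elsewhere. Whether these transcripts have a part in the GATA4 value of pool Embryo511_1 was not tested.

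SOX17, an HMG-box factor of the committed hypoblast, was counted 42 times over the 12 pools together. Control pools held 1 to 8 counts and methionine pools 0 to 5, and 0 of 12 pools reached 15 counts. The levels were 0.71 to 5.71 CPM (median 2.88) in control and 0 to 3.53 CPM (median 1.17) in methionine pools. The highest values were those of pools Embryo423_1, Embryo423_2 and Embryo410_2, all from control sires, and the ranges of the diets overlapped. The 0 counts of pool Embryo511_1 allow up to 3 counts there, or 2.95 raw CPM. Exact permutation tests of the difference in mean log2(CPM + 1) gave p = 0.19 over pools, where it was -0.63, and p = 0.3 over rams, where it was -0.94.

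FOXA2, a forkhead factor of endoderm, was counted 163 times in all, with 56 of the counts in pool Embryo444_2. Control levels were 0.71 to 39.6 CPM (median 8.36) and methionine levels 1.81 to 13.9 CPM (median 4.73). Pool Embryo444_2 was highest and pool Embryo511_1 next, the reverse of GATA6, while the other 10 pools held 1 to 18 counts each. The interval of pool Embryo444_2 was 36.1 to 62.0 raw CPM and that of its sister pool Embryo444_1 was 0.0181 to 3.98 raw CPM, from 1 count. Exact permutation tests gave p = 0.517 over pools and p = 0.7 over rams. Means without the pools that stood apart were 6.76 ± 3.49 CPM in control and 4.86 ± 2.43 CPM in methionine pools (n = 5 each), a difference within 1 SD.

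Among 14 other endoderm regulators, which are transcription factors apart from the secreted antagonist CER1, 13 had a row and 11 were tested. With edgeR 0 of 11 had an FDR under 0.05. At an unadjusted p under 0.05, 1 was higher and 1 lower in methionine pools, while 7.92% of all tested genes reached such a p. The median log2 fold change of the list was -0.27, beside 0.01 for all tested genes. Without pools Embryo444_2 and Embryo511_1 that median was -0.128, over the 10 genes tested in that fit. The higher gene was HHEX, a homeobox gene of early endoderm, with 4.52 to 11.3 CPM in control and 11.3 to 34.7 CPM in methionine pools (log2 fold change 1.08, SE 0.39, FDR 0.585 in edgeR, and 0.88 with FDR 0.349 without pools Embryo444_2 and Embryo511_1). The lower gene was LHX1, a LIM homeobox gene of anterior endoderm, with 2.83 to 52.9 CPM in control and 2.12 to 11.4 CPM in methionine pools (log2 fold change -1.56, SE 0.66, FDR 0.607 in edgeR, and -1.94 with FDR 0.28 without those pools). For HHEX the highest value was that of pool Embryo511_1, and for LHX1 the control range was set by pools Embryo423_1 and Embryo410_1 at 52.9 and 34.6 CPM. KLF6, a zinc finger gene of this list with the highest mean CPM, followed GATA6 in being low in pools Embryo444_2 and Embryo511_1, at 46.7 and 53.5 CPM against 253 to 551 CPM elsewhere. EOMES, a T-box factor, was highest in pool Embryo444_2 at 96.3 CPM and lowest in pool Embryo511_1 at 18.8 CPM.

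PDGFRA is the receptor for platelet-derived growth factor on hypoblast cells. Its level in control pools was 147 and 149 CPM for sire Ram410, 155 and 131 CPM for sire Ram423, and 142 and 166 CPM for sire Ram444. In methionine pools it was 124, 116, 105 and 96.3 CPM for sire Ram424, 129 CPM for sire Ram498 and 115 CPM for sire Ram511. Each control pool lay above each methionine pool, although the gap between the nearest pools, Embryo423_2 and Embryo498_1, was small. By counting error alone these neighbours cannot be separated, since pool Embryo423_2 held 132 raw CPM (exact 95% interval 115 to 152) and pool Embryo498_1 138 raw CPM (120 to 158). The separation was also seen with RLE normalization, where control pools had 130 to 163 and methionine pools 96.2 to 128 CPM. It was not seen in raw CPM, where control pools had 132 to 199 and methionine pools 95.1 to 138.

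The means of PDGFRA were 148 ± 11.8 CPM in control and 114 ± 12.2 CPM in methionine pools (n = 6 each), a log2 fold change of -0.37 (SE 0.20, 95% interval -0.80 to 0.05, FDR 0.663 in edgeR). The unadjusted p of this fit was 0.0819 in edgeR, so the difference did not pass before or after adjustment over all tested genes. An exact two-sided permutation test gave p = 0.00216 over pools, the smallest p that 6 pools against 6 allow, and p = 0.1 over rams, the smallest for 3 rams against 3, in 2 tests for each of 7 genes. Both values follow from the lack of overlap after TMM normalization and add nothing to it. That separation was not seen with scaling by total counts. Without pools Embryo444_2 and Embryo511_1 the means were 145 ± 9.10 and 114 ± 13.6 CPM (n = 5 each), and the log2 fold change was -0.35 (SE 0.18, FDR 0.442 in edgeR). The receptor differed little between pools. Its coefficient of variation over 12 pools was 16.0%, at the 0.795th percentile of all tested genes, whose median was 42.2%.

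Of the genes for PDGFRA's ligands, PDGFA measured 11.3 to 333 CPM in control and 19.8 to 279 CPM in methionine pools, with its lowest values in pools Embryo444_2 and Embryo511_1. PDGFC measured 12.1 to 30.2 CPM in control and 8.92 to 26.8 CPM in methionine pools, and the diets overlapped for both ligands. The correlation of PDGFRA with PDGFA over 12 pools was r = -0.31, and with PDGFC it was r = 0.08.

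Of 20 genes of FGF and MAPK signalling, the route that directs cells to hypoblast, 18 had a row and 17 were tested, with 0 at an FDR under 0.05 in edgeR. At an unadjusted p under 0.05, 1 was higher in methionine pools and 0 lower, while 7.92% of all tested genes reached such a p. The median log2 fold change of the list was 0.12. The higher gene was FGFR1, a receptor for FGF4, and it stood on 1 library, at 787 CPM in pool Embryo511_1 against 27.5 to 78.3 CPM in the other 11 pools (log2 fold change 1.81, SE 0.73, FDR 0.592 in edgeR). Without pools Embryo444_2 and Embryo511_1 the log2 fold change of FGFR1 was -0.16 (FDR 0.856 in edgeR), and the genes of the list at an unadjusted p under 0.05 were others, with FRS2, MAP2K1 and GRB2 higher (log2 fold changes 0.77, 0.60 and 0.56) and ETV5 lower (-0.52), all with an FDR of 0.281 or more in edgeR. In that fit 1925 of 16161 genes (11.9%) reached such a p. FGFR2, the other main FGF receptor of the blastocyst, measured 70.7 to 122 CPM in control and 75.9 to 136 CPM in methionine pools. GRB2, the adaptor that links these receptors to the MAPK cascade, measured 21.9 to 100 CPM in control and 31.7 to 133 CPM in methionine pools (log2 fold change 0.58, SE 0.36, FDR 0.703 in edgeR). GRB2 and GATA6 shared their highest pools, Embryo424_1 and Embryo424_2, and their lowest, Embryo444_2 and Embryo511_1. FRS2, a docking protein of FGF receptors, was highest in pool Embryo444_2 at 273 CPM and lowest in pool Embryo511_1 at 35.7 CPM, and its log2 fold change over 12 pools was 0.06 (FDR 0.981 in edgeR).

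**Figure D2:**
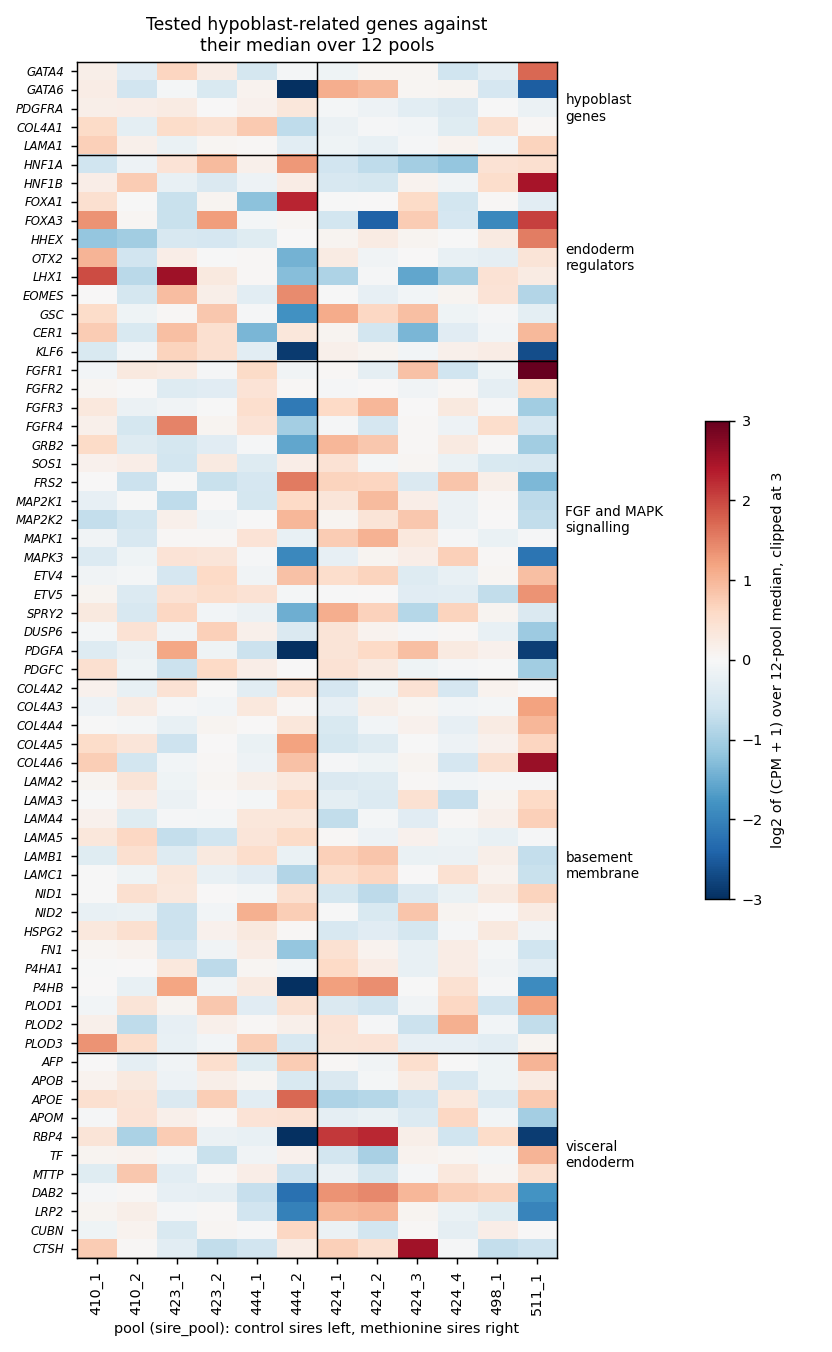
Deviation of each tested hypoblast gene and of the tested endoderm, FGF and MAPK, basement membrane and visceral endoderm genes (rows) in each pool (columns, control sires left of the line and methionine sires right) from the gene's median over 12 pools, as log2 of CPM + 1, with colours clipped at 3. The strongest deviation downward is that of P4HB in pool Embryo444_2, and the strongest upward that of FGFR1 in pool Embryo511_1. In both of these pools, 10 of the 64 genes shown (GATA6, KLF6, FGFR3, GRB2, MAPK3, PDGFA, P4HB, RBP4, DAB2 and LRP2) lie at least 2-fold under their median. The share of all tested genes this low in both pools was not measured, so the count is not read as particular to the genes shown.

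COL4A1 encodes the alpha-1 chain of type IV collagen, the network collagen of basement membranes. In control pools it measured 204 and 111 CPM for sire Ram410, 201 and 188 CPM for sire Ram423, and 236 and 80.0 CPM for sire Ram444. In methionine pools it measured 120, 135, 129 and 106 CPM for sire Ram424, 191 CPM for sire Ram498 and 140 CPM for sire Ram511. Of the control pools, 4 lay at 188 CPM or above, but pools Embryo423_2, Embryo410_2 and Embryo444_2 lay among or under the methionine pools, so the diets overlapped and the pools of sires Ram410 and Ram444 differed among themselves. The means were 170 ± 60.6 CPM in control and 137 ± 29.0 CPM in methionine pools (n = 6 each), a log2 fold change of -0.31 (SE 0.29, 95% interval -0.92 to 0.29, FDR 0.796 in edgeR). Exact permutation tests gave p = 0.4 over pools (difference -0.24 in mean log2(CPM + 1)) and p = 0.6 over rams (-0.10). The size of the fold change rested on sire Ram424, without whose pools it was -0.03 (SE 0.46, FDR 0.989 in edgeR), and it was -0.13 with the pools of each ram summed and -0.20 without pool Embryo444_1. Without pools Embryo444_2 and Embryo511_1 the means were 188 ± 46.5 and 136 ± 32.4 CPM (n = 5 each), with an FDR of 0.434 in edgeR.

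COL4A2, whose product winds with that of COL4A1 into the same collagen molecule, did not share its pool pattern. It measured 63.9 to 109 CPM in control and 55.1 to 107 CPM in methionine pools, and its correlation with COL4A1 was r = 0.06 over 12 pools and r = 0.43 over the 10 pools without Embryo444_2 and Embryo511_1. COL4A2 was at its highest in pool Embryo444_2, where COL4A1 was at its lowest.

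LAMA1 encodes the alpha-1 chain of laminin-111, the laminin of early embryonic basement membranes. It measured 376, 254, 198, 237, 234 and 181 CPM in control pools Embryo410_1, Embryo410_2, Embryo423_1, Embryo423_2, Embryo444_1 and Embryo444_2. In methionine pools it measured 207, 194, 221 and 245 CPM for sire Ram424, 214 CPM for sire Ram498 and 363 CPM for sire Ram511. Pool Embryo410_1 of the control and pool Embryo511_1 of the methionine group stood above the rest, and the other 10 pools lay within 181 to 254 CPM irrespective of diet. The means were 247 ± 68.9 and 241 ± 62.1 CPM (n = 6 each), and the log2 fold change was -0.04 (SE 0.28, 95% interval -0.63 to 0.56, FDR 0.983 in edgeR). Exact permutation tests gave p = 0.868 over pools (difference -0.03 in mean log2(CPM + 1)) and p = 0.7 over rams (0.10). Without pools Embryo444_2 and Embryo511_1 the log2 fold change was -0.27 (FDR 0.631 in edgeR), from means of 260 ± 68.2 and 216 ± 18.7 CPM (n = 5 each).

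The partners of the LAMA1 chain in laminin-111 are the products of LAMB1 and LAMC1. LAMB1 measured 107 to 202 CPM in control and 84.3 to 250 CPM in methionine pools, and LAMC1 139 to 329 and 162 to 402 CPM. Both were highest in pool Embryo424_2, and neither followed LAMA1 over 12 pools (r = -0.48 for LAMB1 and r = -0.26 for LAMC1).

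Of 24 further genes of basement membrane and matrix, 20 had a row and were tested, and 0 had an FDR under 0.05 or an unadjusted p under 0.05 in edgeR, with 9 higher and 11 lower in methionine pools and a median log2 fold change of -0.07. P4HB, a subunit of the enzyme that hydroxylates collagen prolines, measured 37.5 CPM in pool Embryo444_2 and 268 CPM in pool Embryo511_1, against 849 to 2620 CPM elsewhere. Its log2 fold change was 0.44 (FDR 0.892 in edgeR), and 0.39 without these pools (FDR 0.686 in edgeR). FN1, encoding fibronectin, measured 151 to 392 CPM in control and 225 to 466 CPM in methionine pools. COL4A6, another type IV collagen chain, stood at 441 CPM in pool Embryo511_1 and at 48.9 to 133 CPM in the others. LAMA2, an alpha chain of other laminins, measured 111 to 160 CPM in control and 89.4 to 124 CPM in methionine pools (FDR 0.727 in edgeR).

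For the secreted products, APOA1 itself was not analysed here. Of 19 other genes of visceral endoderm secretion and uptake, 14 had a row and 11 were tested, with 0 at an FDR under 0.05 in edgeR. At an unadjusted p under 0.05, 1 was higher in methionine pools and 0 lower, while 7.92% of all tested genes reached such a p. The median log2 fold change of the list was 0.11. The higher gene was DAB2, an endocytic adaptor of both yolk sac endoderm and trophectoderm. DAB2 measured 265, 276, 228, 225, 167 and 56.6 CPM in control pools Embryo410_1, Embryo410_2, Embryo423_1, Embryo423_2, Embryo444_1 and Embryo444_2, and 683, 736, 538 and 454 CPM for sire Ram424, 432 CPM for sire Ram498 and 77.3 CPM for sire Ram511. Except for pool Embryo511_1, methionine pools lay above the control pools, and the log2 fold change was 1.26 (SE 0.48, FDR 0.585 in edgeR), and 1.28 without pools Embryo444_2 and Embryo511_1 (SE 0.23, FDR 0.111 in edgeR). Of the methionine pools left in that fit, 4 came from sire Ram424 and 1 from sire Ram498. LRP2, the endocytic receptor megalin for which DAB2 is an adaptor, measured 278 to 1270 CPM in control and 285 to 2290 CPM in methionine pools, with 2230 and 2290 CPM in pools Embryo424_1 and Embryo424_2 and its lowest values in pools Embryo444_2 and Embryo511_1, the same pools as for GATA6 at either end. RBP4, a secreted carrier of retinol, shared these pools, with 338 and 377 CPM in pools Embryo424_1 and Embryo424_2, 4.96 and 9.91 CPM in pools Embryo444_2 and Embryo511_1, and 39.7 to 131 CPM elsewhere. So did DAB2, while the other 8 tested genes of the list did not share them at both ends. In pools Embryo444_2 and Embryo511_1 APOE, an apolipoprotein, had log2 deviations of 1.72 and 0.78, AFP, the fetal carrier alpha-fetoprotein, 0.77 and 1.03, and TF, the iron carrier transferrin, 0.14 and 1.01, and the median deviations of the 11 tested genes were 0.14 and 0.0042. CTSH, a lysosomal cathepsin, was highest in pool Embryo424_3 at 281 CPM. Without pools Embryo444_2 and Embryo511_1, 3 genes of the list were higher at an unadjusted p under 0.05, DAB2, RBP4 and CTSH, and 0 lower, and the median log2 fold change was -0.06. In that fit 1925 of 16161 genes (11.9%) reached such a p. For RBP4 the log2 fold change was 1.25 over 12 and 1.23 over 10 pools (FDR 0.666 and 0.343 in edgeR), and for CTSH 0.91 and 1.12 (FDR 0.664 and 0.389 in edgeR).

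Other cell types were looked for with lists of their markers. Of 10 uterine markers, 8 had a row and were tested, with a sum of 151 to 215 CPM in control and 149 to 176 CPM in methionine pools, ESR1, the oestrogen receptor, most often the most abundant, and 0 genes at a count of 0. In this list 1 gene was lower in methionine pools at an unadjusted p under 0.05, FOXJ1 of ciliated cells, with 12.8 to 40.4 CPM in control and 2.97 to 16.2 CPM in methionine pools (FDR 0.585 in edgeR). HOXA10, a homeobox gene of the uterus, measured 15.1 to 34.0 CPM in control and 17.2 to 47.3 CPM in methionine pools, and MUC1, a mucin, 10.7 to 53.1 and 8.85 to 17.5 CPM. Of 10 leukocyte and blood markers, 4 had a row and were tested. Their sum was 74.3 to 148 CPM in control and 75.9 to 306 CPM in methionine pools, with PTPRC the most abundant in each pool and highest in pools Embryo511_1 and Embryo444_2 at 254 and 121 CPM, and 0 genes at a count of 0. CD68 measured 6.37 to 26.9 CPM in control and 1.98 to 38.8 CPM in methionine pools, and CD74 7.08 to 21.1 and 5.90 to 20.5 CPM. Of 9 liver markers, 4 had a row and were tested, with a sum of 74.5 to 173 CPM in control and 103 to 147 CPM in methionine pools, with TAT or a fibrinogen chain the most abundant and 0 genes at a count of 0. TAT measured 30.7 to 48.8 CPM in control and 13.9 to 68.8 CPM in methionine pools, FGA 9.03 to 57.3 and 17.6 to 47.6 CPM, and APOH 12.8 to 41.1 and 16.4 to 31.8 CPM. The median log2 fold changes of these 3 lists were -0.17, 0.00 and -0.12, those of the epiblast and trophectoderm lists -0.14 and 0.23, and that of the oocyte and cumulus list 0.19, with ZP2 and ZP3 higher at an unadjusted p under 0.05 (log2 fold changes 0.98 and 2.35, and 0.30 and 0.46 without pools Embryo444_2 and Embryo511_1) and 0 genes of any list at an FDR under 0.05 in edgeR. Without those pools the count at such a p was 2 higher (GATA2 and DAB2) and 1 lower (ELF5) among trophectoderm markers, FOXJ1 lower among uterine markers, and 0 in the epiblast, oocyte, leukocyte and liver lists. Of all tested genes, 7.92% reached such a p over 12 pools and 11.9% without those pools. The medians in the fit without them were -0.109 for uterine, -0.225 for leukocyte and -0.007 for liver markers. For epiblast and trophectoderm markers they were -0.11 and 0.234. For oocyte and cumulus markers the median changed sign, to -0.108.

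Markers of liver and uterus were thus counted in each pool, and between 18934 and 19575 of the 20092 genes had at least 1 count in a pool. A count above 0 was therefore not by itself a mark of a cell type, and no background level was measured.

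Among themselves the 5 tested hypoblast genes shared little of their variation between pools. Over 12 pools their 10 pairwise correlations ran from r = -0.42 for GATA4 and GATA6 to r = 0.45 for GATA4 and LAMA1, and over the 10 pools without Embryo444_2 and Embryo511_1 from r = -0.29 for GATA6 and PDGFRA to r = 0.61 for PDGFRA and COL4A1. These pools share sires and depth, and the values are descriptions. The coefficients of variation over 12 pools were 62.6% for GATA4, 61.7% for GATA6, 31.6% for COL4A1 and 25.7% for LAMA1, at the 82.1st, 81.5th, 24.1st and 11.4th percentiles of tested genes. Over the 10 pools the value of GATA4 was 28.6% and that of GATA6 44.3%, at percentiles 35.1 and 74.3, beside a median of 33.6%. GATA6 thus kept a wider spread than GATA4 without the pools that stood apart. Of those 10 pools, Embryo424_1 and Embryo424_2 held 801 and 736 CPM of GATA6, and the rest 249 to 437 CPM.

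Among the tested hypoblast genes GATA6 had the most genes of a similar pattern, but such numbers were not measured for other genes. Of 16483 other tested genes, 539 (3.27%) had r over 0.9 with GATA6 over 12 pools and 111 (0.673%) over 10 pools, compared with 5 and 3 for GATA4, 1 and 5 for PDGFRA, 0 and 7 for COL4A1 and 3 and 10 for LAMA1. By rank the number was smaller, with 56 genes at a Spearman rho over 0.9 with GATA6 over 12 pools and 1, 1, 1 and 4 for the others in that order. The closest were PTP4A1, a phosphatase (r = 0.99 over 12 and 0.97 over 10 pools), EIF4EBP2, a repressor of translation (r = 0.99 and 0.96), and ZFP42, a zinc finger gene of pluripotent cells (r = 0.99 and 0.96). ZFP42 measured 366 and 352 CPM in pools Embryo424_1 and Embryo424_2, 91.4 to 153 CPM in the other 8 pools, and 13.4 and 17.8 CPM in pools Embryo444_2 and Embryo511_1.

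For GATA4 the closest genes were CDK5R1, PAQR3 and PARP6 (r = 0.94, 0.94 and 0.94), each highest in pool Embryo511_1. Over 10 pools their r was 0.79, 0.79 and 0.84, and another gene, RETREG2, came first (r = 0.94). For PDGFRA they were FAM155A, RASAL3 and OTC (r = 0.92, 0.88 and 0.88), for COL4A1 TNFSF18, SHROOM1 and ADAM8 (r = 0.88, 0.87 and 0.86), and for LAMA1 SLC46A1, KSR2 and FSTL3 (r = 0.93, 0.91 and 0.90). FSTL3, an inhibitor of activin, measured 122 CPM in pool Embryo410_1 and 321 CPM in pool Embryo511_1, against 5.66 to 20.5 CPM in the other 10 pools, the pools where LAMA1 stood high.

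The intervals of the fold changes limit what could be seen. With 6 pools a diet, the 95% interval of GATA6 spanned -0.59 to 1.77 on the log2 scale and that of PDGFRA -0.80 to 0.05, and intervals of raw CPM cover counting error only, since amplified reads are not independent molecules.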

How the data were processed

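RNA was measured in 12 pools of 5 blastocysts, grouped by the diet and sire in their labels. The labels name no dam, so the dam was not used. The authors trimmed the reads with Trimmomatic, aligned them to Oar_rambouillet_v1.0 with STAR and deposited the raw read count of each gene and pool. Which strand was counted is not given in the sources used here, so reads of overlapping genes on opposite strands cannot be told apart. The counts deposited sum to a small part of the reads that the methods state, and whether they are of the strand the genes are read from cannot be told from the files. All 12 columns were mapped to a pool, with 0 unused. The sperm methylation table was not used, because no gene annotation of Oar_rambouillet_v1.0, to which its reads were also aligned, was at hand.

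A gene was tested if more than 3 pools had 15 or more counts (16488 of 20092 genes). Counts were TMM-normalized in edgeR 4.0.16 (R 4.3.3) and diets compared by its two-sided quasi-likelihood test, at an FDR (Benjamini-Hochberg, over all tested genes) under 0.05. Single genes were also compared by exact permutation of mean log2(CPM + 1), with a pseudocount of 1, over pools and over rams. Pools of a ram share a sire, so p-values over pools measure the spread between pools. Intervals for shares are exact 95% binomial intervals, and a count of 0 allows up to 3 counts. The test was tried on simulated counts.

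The hypoblast genes and the lists were chosen with earlier results of these data known. Named from each other list were the 2 genes with the highest mean CPM and the 2 with the smallest p, and for each tested hypoblast gene the 3 genes with the highest r over 12 pools. COL4A2, LAMB1, LAMC1, PDGFC, FGFR2 and FGF4 were named for their relation to a hypoblast gene, TFAP2C, TEAD4, CDX2, UTF1, CER1, FGFR3, MAPK3, MAP2K1, ETV5, GATA2, RBP4, APOE, AFP and TF beside their lists, and RETREG2 as closest to GATA4 over 10 pools, after values had been seen.

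Alternatives were the likelihood-ratio test, DESeq2 1.42.0, 2 other filters, RLE normalization, counts summed over the pools of a ram, a random effect of ram in limma 3.58.1, and leaving out each pool or each ram. Chosen after seeing the data were the fits without pools Embryo444_2 and Embryo511_1, with pools Embryo424_1 and Embryo424_2 summed, and with scaling by total counts. Descriptions were made in Python 3.11.15 (scipy 1.17.1, pandas 2.3.3, numpy 2.4.6) and figures in matplotlib 3.10.9.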

Additional observations from a re-analysis of the deposited data

Results flagged for a closer look

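In 114 groups of 6 pools, the gap between the highest or lowest pool and its nearest neighbour was compared with the range of the group. Of these gaps, 27 exceeded the 95% limit of Dixon's test. Chance flags about 1 in 20 groups, but some groups were of list genes named for a small p. The count of 27 is therefore not set against that rate. Of 14 groups of hypoblast gene levels, 4 exceeded the limit. The share of such groups over all tested genes was not measured, so this count is not read as particular to hypoblast genes. Of all tested genes, 16.3% in pool Embryo511_1 and 12% in pool Embryo444_2 lay at least 2-fold over their median, against 1.42% to 4.87% in other pools. GATA4 stood at 94.2 CPM in methionine pool Embryo511_1 (nearest pool 28.9 CPM), FOXA2 at 39.6 CPM in control pool Embryo444_2 (nearest 9.21 CPM), and LAMA1 at 376 CPM in control pool Embryo410_1 (nearest 254 CPM) and at 363 CPM in methionine pool Embryo511_1 (nearest 245 CPM).

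Most of the other gaps lay in pools Embryo511_1 and Embryo444_2. In pool Embryo511_1 the summed level was 860 CPM for oocyte and cumulus markers (nearest methionine pool 264 CPM) and 306 CPM for leukocyte and blood markers (nearest 116 CPM). In that pool ZP2 stood at 205 CPM, ZP3 at 410 CPM, COL4A6 at 441 CPM, FGFR1 at 787 CPM, HHEX at 34.7 CPM, PRDM14 at 83.3 CPM, PTPRC at 254 CPM and ELF5 at 66.4 CPM, above the other methionine pools, and KLF6 at 53.5 CPM and FOXJ1 at 2.97 CPM, below them. In pool Embryo444_2 FRS2 stood at 273 CPM, HAS2 at 106 CPM, MUC1 at 53.1 CPM and PTPRC at 121 CPM, above the other control pools, and POU5F1 at 14.2 CPM, below them. Elsewhere CTSH was high in methionine pool Embryo424_3 (281 CPM), ELF5 in control pool Embryo444_1 (128 CPM) and ZP2 in control pool Embryo423_2 (54.5 CPM). As libraries, pool Embryo511_1 had counts for 18934 genes (next lowest methionine pool 19404) and a median rank correlation with the other pools of 0.733, and pool Embryo444_2 had one of 0.722.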

How the results depend on the processing

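With the quasi-likelihood test of edgeR 0 genes passed the FDR, against 5 with the likelihood-ratio test, 16 with DESeq2 and 1 without pools Embryo444_2 and Embryo511_1, a choice made after seeing the data; the cause was not tested. In the other settings, each pool or ram left out among them, 0 genes passed, and 0 hypoblast genes did in any. Over 28 alternatives each, of which 2 repeat another because Ram498 and Ram511 had a single pool, the log2 fold changes of PDGFRA (-0.48 to -0.27) and COL4A1 (-0.47 to -0.03) kept their sign. COL4A1, at -0.31, was -0.03 without Ram424, -0.13 with pools summed per ram, -0.17 with the ram as a random effect, -0.20 without Ram423 and -0.20 without pool Embryo444_1, and -0.47 without pools Embryo444_2 and Embryo511_1; the cause was not tested. For PDGFRA an unadjusted p under 0.05 was reached with DESeq2 and with scaling by total counts (FDR 0.473 and 0.609; 0.442 to 1 over its alternatives). GATA4 changed sign without pool Embryo511_1, the sole pool of its ram (-0.25), and without pools Embryo444_2 and Embryo511_1 (-0.29), in a range of -0.25 to 0.43 with 1 pool left out. From 0.28 it went to 0.97 without Ram424, 0.69 with pools summed per ram, 0.53 without Ram423, 0.13 without Ram444 and 0.12 with the ram as a random effect. GATA6 changed sign without Ram424 (-0.81), was at 0.11 with pools summed per ram and at -0.0047 with the ram as a random effect. From 0.594 over 12 pools it ranged from 0.347 to 0.819 with 1 pool left out. LAMA1, at -0.04, was 0.14 with pools summed per ram, 0.078 with the ram as a random effect, 0.18 without Ram410, 0.23 without Ram424, 0.014 with pools Embryo424_1 and Embryo424_2 summed and -0.19 to 0.12 with 1 pool left out; the cause of these changes was not tested. FOXA2 could be fitted with the default edgeR filter (log2 fold change -0.97, FDR 0.722) and without a filter (-0.95, FDR 0.726), and SOX17 without a filter (-0.89, FDR 0.749). Ranked by Spearman's rho, the gene closest to each of the 5 hypoblast genes was another than by r. Levels per coding length and sperm methylation at promoters were not run, for want of a matching annotation. No paired analysis was possible because each ram had a single diet and the pool numbers count the pools within a ram, so that a number shared by pools of different rams pairs nothing.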
